A study of Homo sapiens with 4 samples.

Results

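A long noncoding RNA (lncRNA) gene makes a transcript that is not translated, and many such genes lie far from any protein-coding gene. The regions described here are CTCF peaks whose centre lay within 1 kb of an annotated end of a lncRNA gene and over 5 kb from any end of a protein-coding gene, called remote lncRNA peaks below. On chromosomes 1 to 22 there were 1320 of them among 41313 peaks, or 3.20% (Clopper-Pearson 95% interval 3.03 to 3.37), and the whole list held 42462 peaks. They lay at 1333 of 17795 autosomal lncRNA genes. In all, 2558 autosomal peaks lay within 1 kb of a lncRNA gene end, of which 861 were also within 1 kb of a protein-coding gene end and 377 were 1 to 5 kb from one.

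The peaks came from chromatin immunoprecipitation and sequencing (ChIP-seq) with a rabbit antibody against all CTCF in asynchronous, untreated MDA-MB-435 cells, an established human melanoma line grown in DMEM with serum and antibiotics. Of the 4 samples in the series, 2 are of such cells and 2 of mitotic cells, held with thymidine and then nocodazole, in which a custom rabbit antibody bound CTCF carrying the pT431 phosphorylation. The peaks of the first asynchronous replicate are the data used. No value below therefore has a replicate check, no test between samples was made, and intervals cover counting error only. The library held 19210460 tags (mapped reads), and peak signal is in normalised tags, scaled as if 10000000 had been sequenced.

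CTCF is a zinc finger protein that binds a long DNA motif and stops cohesin, the ring complex that extrudes chromatin loops, so that its sites become loop anchors and domain borders. It also binds near promoters, where it can bring a gene start to distant enhancers. Several lncRNA genes, in particular at imprinted clusters, are known for CTCF sites that govern them or their neighbours.

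The sequences are shown first because CTCF recognises DNA letters directly. RefSeq (GRCh38.p14) lists start windows, from 250 bases before to 50 after a gene's start, for part of the lncRNA genes, and 218 remote lncRNA peaks had their centre in such a window. The windows were searched on both strands for a loose core of the CTCF motif, which is CC, any 3 letters and then AGNNGGC, where N is any base. The following 4 are those of the highest-scoring remote lncRNA peaks with a match, written 5′ to 3′ along the gene's strand with the match in capitals. They are LOC124903549 (chr15:89358617-89358916, minus strand), LOC124903958 (chr17:27353759-27354058, minus strand), LINC02874 (chr12:52213534-52213833, minus strand) and PPM1F-AS1 (chr22:21937987-21938286, plus strand).
LOC124903549: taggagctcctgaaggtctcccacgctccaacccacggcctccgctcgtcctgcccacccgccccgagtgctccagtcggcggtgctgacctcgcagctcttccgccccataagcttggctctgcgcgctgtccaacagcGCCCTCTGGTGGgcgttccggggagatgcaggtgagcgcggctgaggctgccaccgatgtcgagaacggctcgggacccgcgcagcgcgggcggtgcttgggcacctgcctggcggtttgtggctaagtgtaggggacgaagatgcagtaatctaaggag
LOC124903958: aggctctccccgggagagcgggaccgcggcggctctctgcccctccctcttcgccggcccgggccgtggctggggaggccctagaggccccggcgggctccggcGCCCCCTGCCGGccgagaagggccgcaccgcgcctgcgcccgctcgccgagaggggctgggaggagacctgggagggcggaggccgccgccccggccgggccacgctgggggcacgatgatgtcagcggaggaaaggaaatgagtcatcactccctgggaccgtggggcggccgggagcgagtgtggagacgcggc
LINC02874: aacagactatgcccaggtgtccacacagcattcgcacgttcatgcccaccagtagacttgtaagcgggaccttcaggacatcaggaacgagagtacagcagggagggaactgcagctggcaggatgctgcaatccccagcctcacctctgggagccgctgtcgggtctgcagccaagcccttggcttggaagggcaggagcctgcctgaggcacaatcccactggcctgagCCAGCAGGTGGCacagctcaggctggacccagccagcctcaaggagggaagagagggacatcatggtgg
PPM1F-AS1: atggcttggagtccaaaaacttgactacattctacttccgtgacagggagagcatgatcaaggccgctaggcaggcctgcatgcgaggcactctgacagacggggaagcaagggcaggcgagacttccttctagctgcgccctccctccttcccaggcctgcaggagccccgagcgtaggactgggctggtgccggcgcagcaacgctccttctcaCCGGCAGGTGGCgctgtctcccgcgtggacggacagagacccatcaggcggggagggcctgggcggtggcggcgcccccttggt

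The peaks at these windows held 159.8, 126, 128 and 107 normalised tags in the order of the sequences. The middle of the match lay 44.5, 0.500, 56.5 and 34.5 bp from the peak centre. Where the capitals begin with GCC and end with GG, the core reads on the opposite strand.

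A further 8 matches are shown as stretches of 36 bases, turned so that the core reads left to right, for the next peaks by score at genes without a LOC symbol whose match has 12 bases on either side. Their places are LINC02558 (chr22:31970807-31970842, plus), SBF2-AS1 (chr11:9758251-9758286, plus), LINC00398 (chr13:30803052-30803087, minus), LINC00933 (chr15:84570915-84570950, plus), LINC02724 (chr11:64448973-64449008, plus), SCIRT (chr6:44074706-44074741, minus), SNHG26 (chr7:22854108-22854143, plus) and IL2RB-AS1 (chr22:37166684-37166719, plus).
LINC02558: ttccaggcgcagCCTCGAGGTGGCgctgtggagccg
SBF2-AS1: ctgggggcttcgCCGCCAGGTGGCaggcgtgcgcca
LINC00398: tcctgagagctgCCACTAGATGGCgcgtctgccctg
LINC00933: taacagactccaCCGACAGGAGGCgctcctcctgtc
LINC02724: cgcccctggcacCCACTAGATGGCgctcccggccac
SCIRT: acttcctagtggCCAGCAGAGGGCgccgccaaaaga
SNHG26: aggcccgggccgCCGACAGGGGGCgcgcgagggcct
IL2RB-AS1: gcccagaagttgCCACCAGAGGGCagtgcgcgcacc

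These 8 peaks held 55.2 to 88.5 normalised tags, and each match lay 1.50 to 24.5 bp from its peak centre. The core letters were not in every strong window. A further 2 windows, at the peak between LINC02332 and LOC105370399 (chr14:22557133-22557432, plus) and at SNHG11 (chr20:38446404-38446703, plus), held no match. Their capitals mark AGNNGGCGC, a form of the core's right side that was chosen after these windows had been seen.
LOC105370399: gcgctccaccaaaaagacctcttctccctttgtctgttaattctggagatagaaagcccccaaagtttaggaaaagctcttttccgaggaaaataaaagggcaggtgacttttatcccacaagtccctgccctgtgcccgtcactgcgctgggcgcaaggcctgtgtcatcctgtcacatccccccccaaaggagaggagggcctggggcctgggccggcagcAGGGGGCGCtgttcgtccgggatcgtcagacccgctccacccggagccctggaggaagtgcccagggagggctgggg
SNHG11: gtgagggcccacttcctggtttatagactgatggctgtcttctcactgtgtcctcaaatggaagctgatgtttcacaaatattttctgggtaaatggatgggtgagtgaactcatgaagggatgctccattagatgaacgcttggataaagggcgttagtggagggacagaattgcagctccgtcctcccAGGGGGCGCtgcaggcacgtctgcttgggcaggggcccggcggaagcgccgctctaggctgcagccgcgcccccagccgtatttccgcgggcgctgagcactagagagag

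CTCF peaks at remote lncRNA genes were more frequent at the start of the gene than at its finish. RefSeq start windows give the strand of 11145 of 17795 autosomal lncRNA genes, so that the 5′ end (the start) can be told from the 3′ end, and all values on starts and finishes cover those genes alone. A peak lay within 1 kb of 658 of 7973 remote 5′ ends, 8.25% (7.66 to 8.88), against 338 of 8945 remote 3′ ends, 3.78% (3.39 to 4.19). Remote ends are those over 5 kb from any protein-coding gene end. Among remote ends of noncoding genes of every kind, 4.43% had a peak within 1 kb.

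In genes of at least 5 kb, where the ends cannot share a window, the shares were 8.23% (7.52 to 8.99) at 5′ ends and 3.11% (2.71 to 3.57) at 3′ ends. Of 5112 such genes with both ends remote, 378 had a peak at the 5′ end only and 124 at the 3′ end only. A further 19 had one at both, and 4591 at neither.

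The peaks were densest just upstream of the start. The bin from 250 bp upstream to the 5′ end held 22.2 peaks per 1000 ends and the 250 bp after it 15.3. By distance on both sides, 5′ ends had 75.3 peaks per 1000 ends and kb within 250 bp, 33.9 from 250 to 500 bp and 29.1 from 500 to 1000 bp. From 1 to 2 kb the density was 18.5, and from 2 to 5 kb it was 16.4. At 3′ ends the density was 19.5 within 250 bp and 16.8 from 2 to 5 kb, so the profile stayed nearly level there.

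**Figure D1:**
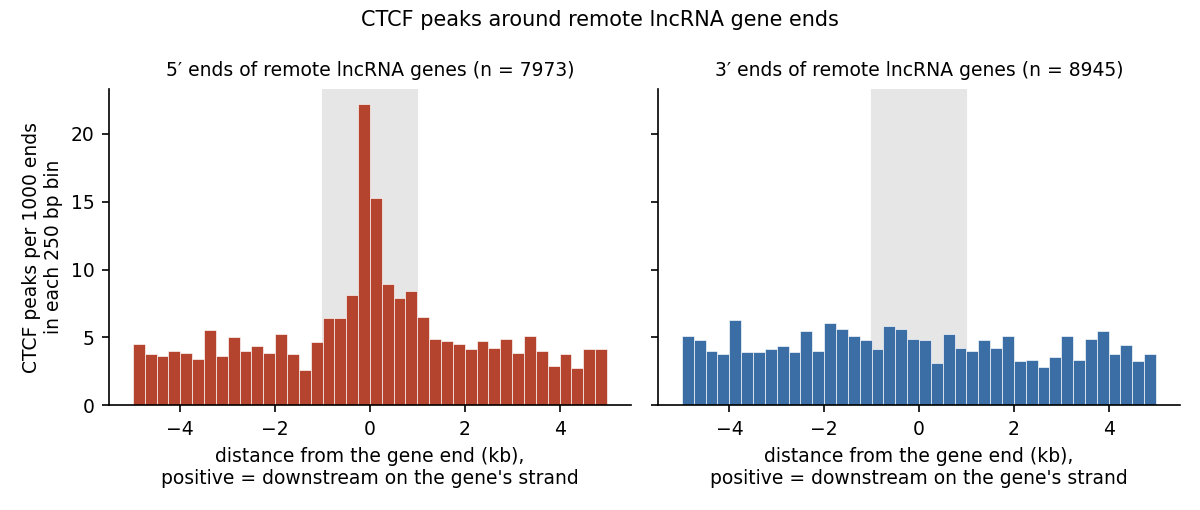
CTCF peaks per 1000 ends in 250 bp bins (vertical axis) by distance in kb from remote lncRNA gene ends (horizontal axis, positive is downstream on the gene's strand), with 7973 5′ ends on the left and 8945 3′ ends on the right and the 1 kb window shaded. The 5′ ends reach 22.2 in the bin just upstream, and the 3′ ends show no such rise.

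Of the 930 remote lncRNA peaks whose nearest gene has a listed strand, 624 (67.1%, 64.0 to 70.1) lay at a 5′ end and 306 at a 3′ end. The 5′ peaks lay a median of 278 bp from the end and the 3′ peaks 471 bp. Within 250 bp of the end were 46.6% of 5′ peaks (42.7 to 50.6) and 27.5% of 3′ peaks (22.5 to 32.8). Upstream of the gene, outside its body, lay 51.9% of the 5′ peaks, so they stood on either side of the start in nearly equal numbers.

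The 5′ peaks also reached further into the strong end of the list. Their median was 25.8 normalised tags (quartiles 13.3 and 46.8), against 21.5 (12.8 and 37.7) for 3′ peaks. In the top decile of all autosomal peaks by score, which holds 10.1% of them because of ties, were 119 of 624 5′ peaks (19.1%, 16.1 to 22.4) and 37 of 306 3′ peaks (12.1%, 8.66 to 16.3). These intervals overlap narrowly. The median local background, the normalised tags divided by the fold over the surrounding 10 kb, was 1.62 at 5′ peaks and 1.50 at 3′ peaks.

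Remote ends of lncRNA genes were set beside those of other noncoding genes, with both ends of each gene counted. A peak lay within 1 kb of 5.08% of all remote lncRNA gene ends (1420 of 27975, 4.82 to 5.34), against 6.51% of transcribed pseudogene ends (126 of 1935, 5.45 to 7.70) and 5.88% of small RNA gene ends (301 of 5121, 5.25 to 6.56). The lncRNA share was thus below both of these, with intervals apart for transcribed pseudogenes and overlapping for small RNA genes. Ends of lncRNA genes with no listed strand had a peak at 3.83% (3.48 to 4.21). Pseudogenes that are not listed as transcribed had one at 2.62% of ends (665 of 25386, 2.43 to 2.82). Their density was 14.1 peaks per 1000 ends and kb within 250 bp and 14.2 from 2 to 5 kb, a level profile. Transcribed pseudogenes had 61.0 within 250 bp and 13.7 from 2 to 5 kb. The ends of the other kinds are not split into starts and finishes, so the 8.25% of lncRNA 5′ ends has no like value among them, and both ends of a small RNA gene usually share a peak. At protein-coding genes with a listed strand, where distance from other genes was not asked for, a peak lay at 24.8% of 5′ ends (24.1 to 25.5) and 6.85% of 3′ ends (6.45 to 7.26).

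**Figure D2:**
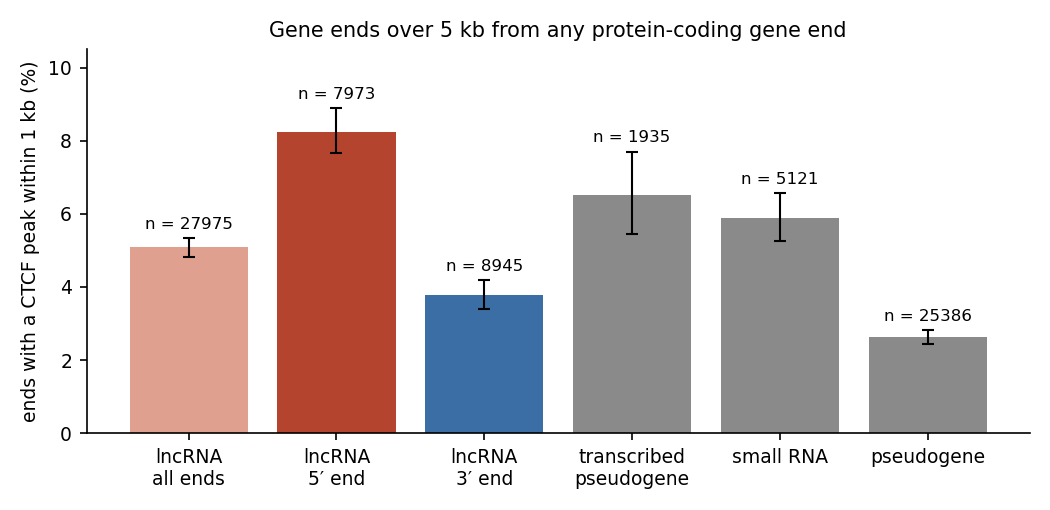
Share of gene ends over 5 kb from any protein-coding gene end with a CTCF peak within 1 kb (vertical axis, %), for all lncRNA ends, lncRNA 5′ ends, lncRNA 3′ ends and both ends of transcribed pseudogenes, small RNA genes and pseudogenes, with Clopper-Pearson 95% intervals. Counted over both ends, lncRNA genes at 5.08% lie below transcribed pseudogenes at 6.51% and small RNA genes at 5.88% and above pseudogenes at 2.62%.

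In the top decile of the list the share of remote lncRNA peaks stood between those of peaks at protein-coding gene ends and of other remote peaks. Their median was 23.7 normalised tags (quartiles 12.8 and 42.2, range 7.03 to 286). It was 22.6 (11.5 and 50.0) for the 5150 peaks within 1 kb of a protein-coding gene end and 20.3 for all autosomal peaks. The quartiles were 11.7 and 31.8 for the 29237 other remote peaks. The median score, on the peak caller's own scale, was 46 for remote lncRNA peaks, 44 at protein-coding gene ends and 37 for other remote peaks. Other remote peaks are those over 5 kb from protein-coding and over 1 kb from lncRNA gene ends.

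In the top score decile were 198 of 1320 remote lncRNA peaks, 15.0% (13.1 to 17.0), against 21.5% of peaks at protein-coding gene ends (20.4 to 22.7), 6.71% of other remote peaks (6.43 to 7.00) and 10.1% of all autosomal peaks. At over 20 kb from protein-coding gene ends the share of remote lncRNA peaks was 11.2% (93 of 831, 9.13 to 13.5). This interval includes 10.1%, but that value also covers peaks at protein-coding gene ends. The share of other remote peaks at over 20 kb was not computed. In the bottom decile were 8.33% of remote lncRNA peaks (6.90 to 9.96), against 8.78% of all autosomal peaks, so the weak end held about its background share.

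Peak shape and local enrichment were set side by side as well. The focus ratio, which rises as plus-strand tags fall left and minus-strand tags right of the centre, had a median of 0.853 in remote lncRNA peaks, 0.816 at protein-coding gene ends and 0.849 in other remote peaks. Median enrichment over the 10 kb around was 14.7-fold, 11.5-fold and 13.6-fold in the same order, and the median local background 1.54, 1.87 and 1.38 normalised tags. Local background thus stood in the same order as the share in the top decile, and its part in that share was not tested.

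**Figure D3:**
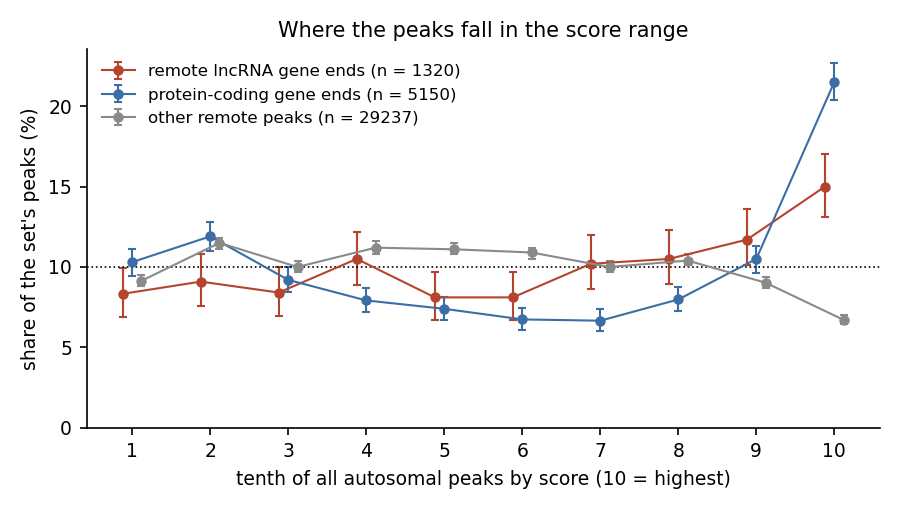
Share of each set's peaks (vertical axis, %) in each decile of all autosomal peaks by score (horizontal axis, 10 is the highest), for 1320 remote lncRNA peaks, 5150 peaks at protein-coding gene ends and 29237 other remote peaks, with Clopper-Pearson 95% intervals and a dotted line at 10%. In the highest decile the shares are 15.0%, 21.5% and 6.71%.

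The 10 remote lncRNA peaks of highest score lay mostly at loci without an established name, with 7 at genes carrying a LOC symbol. A LOC gene was nearest to 65.5% of all remote lncRNA peaks, so this count does not set the 10 apart. The strongest, at LOC124904526 on chromosome 1 (225474944 to 225475292, hg38), held 286 normalised tags (exact Poisson 95% limits 262 and 311) and lay 849 bp outside the gene's lower end. Its nearest protein-coding gene, ENAH, an actin regulator, was 11711 bp away. The peak at the 5′ end of LOC107986997 on chromosome 9 (40992003 to 40992351) held 190.0 normalised tags (171 to 211), with no protein-coding gene end within 134258 bp. No control library was named in the peak calling, so extra DNA copies or repeats cannot be told apart from binding at single peaks such as these.

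The peak shared by LINC02332 and LOC105370399 on chromosome 14 (22557131 to 22557479) held 150.2 normalised tags (134 to 169). It stood 35.2-fold over its surroundings and 7602 bp from DAD1, which encodes an oligosaccharyltransferase subunit. At LOC401021 on chromosome 2 (176140499 to 176140847) a peak of 158 normalised tags (141 to 177) lay beyond the 3′ end and 7978 bp from HOXD8, a homeobox gene that patterns the body axis. A peak of 159.8 normalised tags (142 to 179) lay 149 bp upstream of LOC124903549.

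Besides LINC02332, the nearest genes with a name among the 10 were CISTR and EPB41L4A-AS1. CISTR, a lncRNA gene known from cartilage formation, had 137 normalised tags (121 to 154) 460.0 bp inside its 3′ end. It had a weaker peak of 39.0 (30.7 to 48.9) 323 bp from its 5′ end. EPB41L4A-AS1, transcribed antisense to EPB41L4A, had 134 normalised tags (117 to 151) 243 bp inside its 5′ end, with a focus ratio of 0.930 and a fold of 65.5 over its surroundings. The remaining 3, at LOC124904460, LOC124906289 and LOC105369519, held 161, 146 and 140.0 normalised tags. The peak at LOC124904460 also lay 107 bp upstream of a listed start of C1orf220.

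Of the 1333 genes, 1285 had 1 remote lncRNA peak and 48 had 2. The 5 of these 48 with the highest summed tags are named. LINC03146 on chromosome 17 had 96.0 normalised tags (82.4 to 111) at its lower end and 126 (111 to 143) at its upper end. The peak of 126 is the one shown above for LOC124903958. It lay 140 bp from the end of that gene and 591 bp from that of LINC03146. GASAL1 on chromosome 8 had 71.6 (60.4 to 84.9) at its lower end and 63.2 (52.3 to 75.3) at its upper end. These 2 peaks of GASAL1 stood 11.7-fold and 6.37-fold over their surroundings. Their centres lay 3359 bp apart, so each lay within the 10 kb around the other. Their local background was 6.12 and 9.92, the latter the highest of all remote lncRNA peaks. LOC107984399 had 100.5 normalised tags near its 5′ end and 48.2 near its 3′ end. LOC284950 had 73.4 near its 5′ end and 65.8 near its 3′ end, intervals of 61.8 to 86.6 and 54.6 to 78.1 that overlap. CISTR, with its stronger peak at the 3′ end, was the fifth.

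Lists of lncRNA genes were then looked up among the 15516 with a remote end, of which 1325 (8.54%) had a remote lncRNA peak. Of 36 known regulatory lncRNA genes with a remote end, 7 had one (19.4%). The lower limit of its interval, 8.19%, lies below 8.54%, so the interval includes that share. Peaks were strongest at BDNF-AS, antisense to the neurotrophin gene BDNF, with 59.9 normalised tags (49.4 to 71.9) 958 bp from its 3′ end, and at MIAT with 40.3 (31.6 to 50.1) 958 bp from its 5′ end. CCAT2 and CCAT1, transcripts of the region beside MYC, had 22.9 (16.6 to 30.7) and 14.6 (9.69 to 21.1).

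The other 3 were weak, in the lowest 2 score deciles. NORAD, the RNA that binds Pumilio proteins, had 8.59 normalised tags (5.16 to 14.2), LINC00673 had 9.37 (5.55 to 14.8) and MEG9, of the imprinted DLK1-MEG3 cluster, had 8.33 (4.76 to 13.5). Genes with a remote end and no remote lncRNA peak included the abundant nuclear RNA genes MALAT1 and NEAT1, whose nearest peaks lay 4416 and 6258 bp from an end. For the imprinted MEG3, KCNQ1OT1 and H19 the distances were 9693, 7400 and 77341 bp, and for HOTTIP, at the HOXA cluster, 3250 bp. A missing peak here means only that none was called.

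Of 16 melanoma-associated lncRNA genes with a remote end, 4 had a remote lncRNA peak. LINC00518, expressed in melanoma and used as a marker of it, shared a peak of 25.8 normalised tags (19.3 to 34.3) with MIR5689HG, 15590 bp from TFAP2A. MIR155HG had 14.1 (9.26 to 20.4), LINC00673 9.37 and PRECSIT 8.33. SAMMSON and BANCR, both known from melanoma cells, had their nearest peaks 51142 and 72973 bp away. DIRC3 lay just outside the limit, with its nearest peak 1080.0 bp from an annotated end.

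MicroRNA host genes, whose transcripts carry microRNA hairpins, had a remote lncRNA peak in 13 of 68 with a remote end (19.1%, 10.6 to 30.5), against 8.54% of all lncRNA genes. MIR194-2HG had the strongest, 87.2 normalised tags (74.7 to 102) 405 bp beyond its 3′ end. MIR9-2HG, host of the neural microRNA miR-9, had 54.9 (44.7 to 66.2) 87 bp upstream of its start. MIR202HG had 52.3 and MIR3663HG 45.3. MIR34AHG, host of the p53 target miR-34a, had 38.8 (30.7 to 48.9) 888 bp from its 5′ end, and MIR193BHG had 36.7.

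At the weak end were MIRLET7A1HG, a let-7 host, with 13.5 normalised tags (8.84 to 19.8) 23 bp from its start, and MIR4280HG with 13.5. Of the 13 peaks, 10 lay at a 5′ end and 3, at MIR194-2HG, MIR202HG and MIR4280HG, at a 3′ end. SnoRNA host genes, which carry small nucleolar RNAs in their introns, had a remote lncRNA peak in 3 of 15. SNHG11 had 81.5 normalised tags (69.4 to 95.6) 46 bp upstream of its start. SNHG26 had 64.8 (53.7 to 77.0) at the start and 18.5 (13.1 to 25.9) at the finish, and SNHG33 had 9.63 (5.55 to 14.8). The lists are short and their intervals wide, and they were chosen with earlier results of these data known.

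Grouped by the kind of gene name at the nearest end, 865 of the 1320 peaks (65.5%) lay at uncharacterised LOC genes, 221 at LINC-numbered genes and 142 at antisense genes. A further 52 lay at genes with another symbol, 17 at divergent transcripts, 10 at microRNA hosts, 8 at intronic genes and 5 at snoRNA hosts. None of 22 remote ends of genes named as overlapping transcripts had a peak, which with so few ends allows a share of up to 15.4%.

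Peaks reached 4.67% of remote LOC ends (929 of 19872, 4.39 to 4.98) and 6.06% of the remote ends of genes with another symbol (491 of 8103, 5.55 to 6.60). The intervals were apart at starts and overlapped at finishes. At 5′ ends the shares were 7.51% for LOC genes (6.83 to 8.25) and 9.82% for the others (8.69 to 11.0), and at 3′ ends 3.86% (3.38 to 4.39) and 3.62% (2.99 to 4.34). Median strength varied little among the larger classes, with 23.4 normalised tags at LOC genes, 22.4 at LINC genes and 26.6 at antisense genes.

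The leading antisense genes after EPB41L4A-AS1 included PFKFB3-AS1 and PPM1F-AS1. Divergent transcripts were led by LRRC8C-DT with 64.5 normalised tags (53.7 to 77.0) 124 bp upstream of its start, and intronic genes by BACH1-IT3 with 46.8 (37.7 to 57.6).

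**Figure D4:**
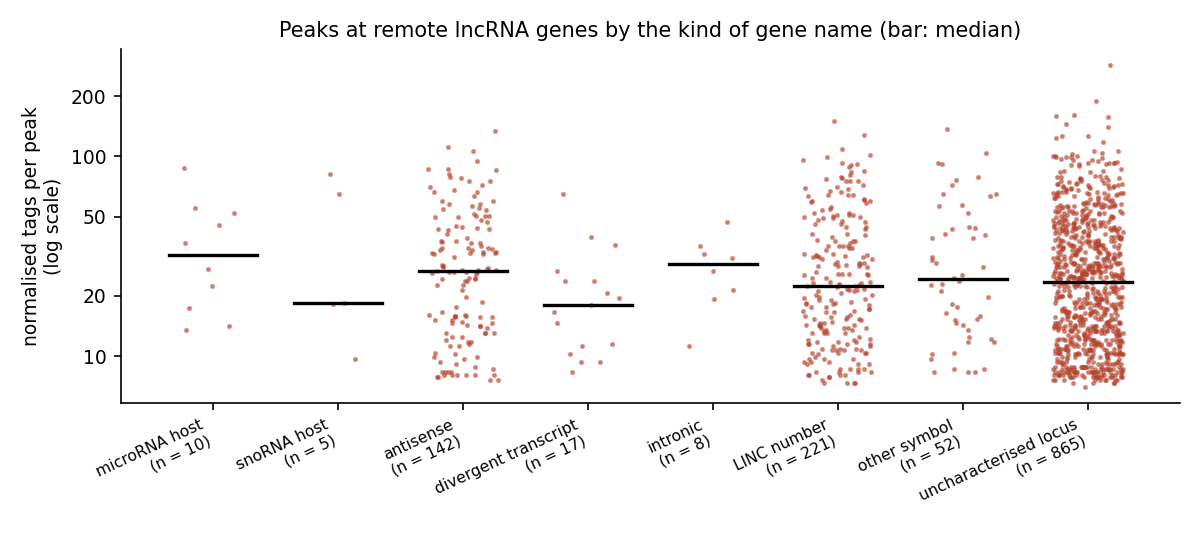
Normalised tags per peak (vertical axis, log scale) for the 1320 remote lncRNA peaks, grouped by the kind of name of the nearest lncRNA gene, with each point a peak and each bar a median. The classes overlap throughout, with medians of 32.0 at 10 microRNA host peaks, 26.6 at 142 antisense peaks and 23.4 at 865 LOC peaks.

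Across chromosomes, a peak lay at 7.63% of the remote lncRNA ends of chromosome 17 (6.04 to 9.48), the highest share, and 7.27% of those of chromosome 22 (5.17 to 9.88). Chromosome 8 had the lowest, 3.66% (2.76 to 4.76). The intervals of chromosomes 17 and 8 did not overlap. They were picked as the extremes of all autosomes, so this does not measure a difference between them. Chromosome 1 held the most remote lncRNA peaks, 137 of its 3957 peaks, and chromosome 21 the fewest, 19 of 434.

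Most remote lncRNA peaks lay between protein-coding genes. Inside one were 27.2% (359 of 1320, 24.8 to 29.7), against 47.6% of other remote peaks (47.0 to 48.2). The remote lncRNA ends themselves lay inside protein-coding genes as often, 7617 of 27975 or 27.2%. A peak lay at 4.99% of the ends inside (4.51 to 5.50) and 5.11% of those outside. Another CTCF peak within 20 kb was found for 56.7% of remote lncRNA peaks (53.9 to 59.4), against 52.1% of other remote peaks (51.5 to 52.7), 61.0% of peaks at protein-coding gene ends and 55.5% of all autosomal peaks.

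A peak at a single lncRNA gene was the rule, with 1260 of 1320, and 59 peaks lay at 2 lncRNA genes and 1 at 3. Where both strands were known, 23 of 33 pairs had both 5′ ends at the peak, 9 a 5′ and a 3′ end and 1 both 3′ ends. How often neighbouring lncRNA ends without a peak pair in these ways was not counted, so these counts have no background. Near an immunoglobulin or T cell receptor segment, which was not counted as protein-coding, lay 7 of the 1320. The like share among all autosomal peaks was not computed.

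The CTCF core letters shown above were more frequent in start windows with a peak centre than in those without. Of the 218 windows, 1 for each remote lncRNA peak, 90 held the core (41.3%, 34.7 to 48.1), against 329 of 7345 windows of remote lncRNA genes with no peak within 1 kb of a listed start (4.48%, 4.02 to 4.98). Among all autosomal start windows of the same length the share was 10.6%. Protein-coding start windows with a peak centre held it in 553 of 1627 (34.0%, 31.7 to 36.3), a share whose interval overlaps that of the lncRNA windows. In 78 of the 90 the match lay within 50 bp of the peak centre, and the median distance was 13.0 bp. A match is a description of letters, and 128 of the 218 windows had none, of which 20 held AGNNGGCGC. Among windows without the core, AGNNGGCGC was in 150 of 7016 with no peak and 2538 of 29993 of all start windows. That form, which overlaps the core, was in 25.7% of windows with a peak centre, 2.42% of windows with no peak and 10.4% of all start windows. It was chosen after windows with a peak had been seen, so its share in them is no independent finding.

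Windows with a peak centre were also richer in G and C, with a median of 58.7% against 46.0% in windows with no peak. Among windows with no peak the core was more frequent where G and C were. The shares also differed within bands of G and C content. They were 34.3% with a peak and 1.16% without below 45% G and C, 47.2% and 3.72% from 45 to 55%, 38.0% and 10.4% from 55 to 65%, and 44.1% and 17.2% above that. The intervals did not overlap in any band. The bands are wide, so G and C content can differ within them, and its part in these shares was not tested.

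**Figure D5:**
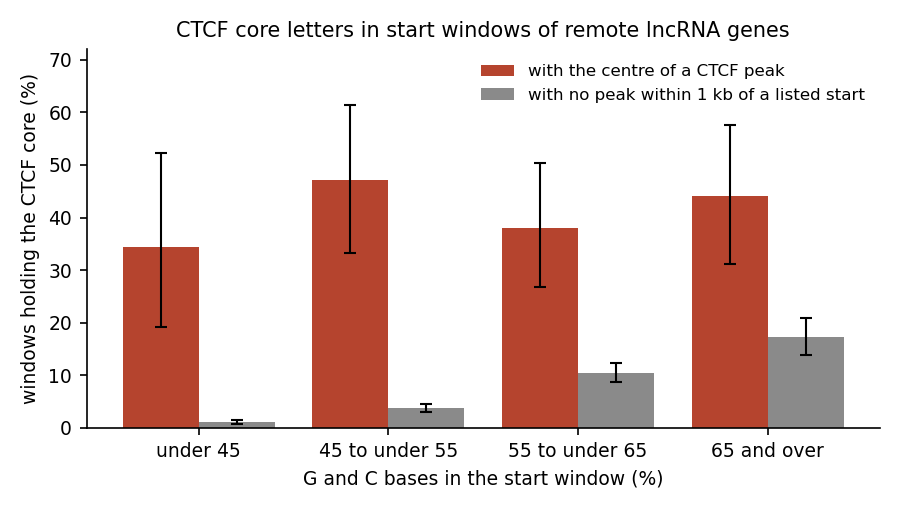
Share of 300-base start windows of remote lncRNA genes holding the CTCF core (vertical axis, %) by G and C content (horizontal axis, %), for windows with the centre of a CTCF peak and windows with no peak, with Clopper-Pearson 95% intervals. In the lowest band the shares are 34.3% and 1.16%, and in the highest 44.1% and 17.2%.

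Stronger peaks held the core more often. It stood in 33 of 64 windows with a peak of the top score decile (51.6%, 38.7 to 64.2), and in 27 of 52 of deciles 8 and 9 (51.9%). It stood in 21 of 62 of deciles 4 to 7 (33.9%), and in 9 of 40 of deciles 1 to 3 (22.5%, 10.8 to 38.5). In windows with a single match and a peak the core read along the transcribed strand in 51 of 78 (65.4%, 53.8 to 75.8), against 142 of 313 windows with no peak (45.4%, 39.8 to 51.1). At protein-coding starts the same shares were 302 of 478 with a peak (63.2%, 58.7 to 67.5) and 545 of 1033 without (52.8%, 49.7 to 55.8).

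The limits of 1 kb and 5 kb cut through a continuous range. Just inside 1 kb were LOC105370453, at 1000 bp with 28.1 normalised tags (21.1 to 36.7), and LOC124901695, at 998 bp with 10.2 (6.36 to 16.1). Just outside were LOC124902177, at 1001 bp with 20.3 (14.4 to 27.8), and LOC124902651, at 1002 bp with 14.8 (9.69 to 21.1). Just over 5 kb from a protein-coding gene were LOC112268251, at 5009 bp with 7.81 (4.37 to 12.9), and LOC124902930, at 5017 bp with 57.0 (46.6 to 68.4). Just too near were TNRC18-AS1, at 4998 bp with 8.07 (4.76 to 13.5), and LOC105379178, at 4965 bp with 57.0 (46.6 to 68.4).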

How the data were processed

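CTCF ChIP-seq of MDA-MB-435 cells was represented by the deposited peaks of the first asynchronous replicate. Data of the other 3 samples were not used here. The submitters' processing notes name Bowtie2, HOMER and hg38 without versions. Per the file headers, findPeaks was run for factors and lists no control. It took fragments as 164 bp, counted 1 tag per position at most and kept peaks at a false discovery rate of 0.001 (at least 15 tags), 4-fold enriched over the local 10 kb at a Poisson p of 1e-04. Peaks are 349 bp wide.

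The deposited signal, per the file headers, gives each peak's tags for a library scaled to 10000000. The deposited focus ratio is a fraction, the deposited score is the caller's own, and the deposited fold over the local region and clonal fold are each a ratio, all made by the authors' peak caller. The deposited p-value was not used. These values served for description and ranking inside the list alone.

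Gene ends and kinds came from RefSeq (GRCh38.p14, the same primary chromosomes as hg38), and strands and 300-base start windows from its start table, which covers 11145 of 17795 autosomal lncRNA genes. Distances run from the peak centre. Single peaks have exact Poisson 95% intervals and shares Clopper-Pearson 95% intervals. With 1 library no test between groups was possible, and no p-value is given. The distance and motif searches were checked on simulated peaks and windows. Named genes are those of the 10 highest scores, the listed genes, the 5 genes with most peaks (ties by summed tags), the leader of each name class, and the peaks at the limits. The named windows and the remaining genes were chosen after their values were seen. Members and lists were chosen with earlier results of these data known. Computation used Python 3.11.15 with scipy 1.17.1, pandas 2.3.3 and numpy 2.4.6, and plots used matplotlib 3.10.9.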

Additional observations from a re-analysis of the deposited data

Results flagged for a closer look

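Chromosome X was outside the report's comparisons, and 21 of its 1075 peaks (1.95%, 1.21 to 2.97) met the same distances from lncRNA and protein-coding gene ends, with a median of 16.1 normalised tags. On the autosomes the share was 3.20% (3.03 to 3.37) and the median 23.7 normalised tags, so both were lower on chromosome X. Its median rests on 21 peaks. The median of all chromosome X peaks and the number of its remote lncRNA ends are not given here, so neither value has a background.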

How the results depend on the processing

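No paired analysis was possible because a single library was analysed. With a window of 500 bp there were 803 remote lncRNA peaks, and a peak lay at 3.00% of remote ends, 5.44% of 5′ ends and 1.84% of 3′ ends. With 2 kb these values were 2150, 8.54%, 11.5% and 7.53%. Keeping 20 kb from protein-coding gene ends gave 831 peaks, 4.24%, 6.95% and 3.00%, and a top-decile share of 11.2%. All autosomal peaks, at any distance from protein-coding gene ends, had 10.1%. Keeping 2 kb moved the share of remote ends to 5.37%. Leaving out peaks under the median score left 734, with 2.82%, 4.95% and 1.95% of ends, a median of 38.6 normalised tags and a top-decile share of 27.0%, which follow from the smaller list. Without LOC genes there were 464 peaks, at 6.06% of remote ends and 9.82% of 5′ ends. In genes of at least 5 kb the 3′ share was 3.11%. A stricter core, with A after CC and a further C after 1 more letter at the end, was in 13.3% of windows with a peak centre and 0.381% of windows without, against 0.814% of all start windows. In each alternative of window, distance, score, gene set or gene length for which both were computed, the 5′ share exceeded the 3′ share. The remaining 23 values stayed within the counting interval of the main value or, for counts of peaks, within 1.5 times of it. For the median of normalised tags, that interval was of a single peak's tags, too wide to show a shift of a median. Except in the list without peaks under the median score, the median ran from 21.9 to 24.9 normalised tags, against 23.7. The alternatives for 5′ and 3′ ends, and the stricter motif in windows without a peak, were chosen after seeing the data. The median peak rests on few tags, so single weak peaks are imprecise.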
